A study of Mus musculus with 6 samples.

Results

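The 9 genes described here encode transient receptor potential (TRP) channels that sensory neurons use to detect heat, cold, irritants and touch: Trpv1, Trpv2, Trpa1, Trpm8, Trpm2, Trpm3, Trpm4, Trpm7 and Trpc1. They were taken by gene name from the deposited count table, and all 9 of 9 were found among its 54532 genes and passed the filter on low counts, which kept 16032 genes. The libraries are bulk RNA-seq of mouse dorsal root ganglia, which hold the cell bodies of the sensory neurons of the body. One group of 3 libraries is wild type (WT), and the other 3 are labelled Ash1l+/-, heterozygous for Ash1l, which encodes a histone H3 lysine 36 methyltransferase, and the wild types are littermates. The labels give no allele structure, age, sex or spinal level and do not say whether libraries come from separate or pooled animals. The p-values therefore reflect the spread among these 6 libraries alone, which may be technical.

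TRP channels are cation channels that open to temperature, chemicals or signals inside the cell, and their opening depolarises the nerve ending. In sensory ganglia, small neurons that carry TRPV1, the receptor for capsaicin and noxious heat, and TRPA1, the receptor for mustard oil and other irritants, include many of the pain and itch fibres. TRPM8, the receptor for menthol and cool temperatures, marks a small separate class of neurons, and TRPM3 takes part with TRPV1 and TRPA1 in the detection of noxious heat. The title of the study names release of the microRNA let-7b from neurons, and extracellular let-7b is known to excite pain neurons through the receptor TLR7 coupled to TRPA1.

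The mature sequence of let-7b-5p (RefSeq, GRCm38.p6, chromosome 15, plus strand), with its seed, bases 2 to 8, in capitals, is shown because the study's title names this microRNA.
let-7b-5p: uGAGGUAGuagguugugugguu
Its seed match CTACCTC was searched, on the transcript strand only, in the longest annotated 3' untranslated region of each gene in GENCODE M21. Of the 9 channel genes, Trpm2 alone held a match, 1 site at base 2077 of 2454, whose surroundings are shown with the match in capitals.
Trpm2 site: ctatcctaatctggCTACCTCc
The match was present in 10.6% of 14047 tested genes with such a region, so 1 of 9 is near that share. Trpa1, with a region of 858 bases, and Trpv1, with 735 bases, held none of these letters.

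RefSeq promoters, 250 bases before to 50 after each annotated start, were found for 7 of the 9 genes. The 4 shown are those of the genes whose transcripts were higher in every library labelled Ash1l+/- than in every WT library, for Trpm3 the first of its 2 annotated starts. They are written 5′ to 3′ on the strand of the gene, and capitals mark matches on either strand to TGTGGT or TGCGGT, the core bound by RUNX factors, of which RUNX1 is known to be needed for TRP channel expression in pain neurons, and to TATAAA, the TATA box.
Trpv1, chr11:73233899-73234198, plus strand: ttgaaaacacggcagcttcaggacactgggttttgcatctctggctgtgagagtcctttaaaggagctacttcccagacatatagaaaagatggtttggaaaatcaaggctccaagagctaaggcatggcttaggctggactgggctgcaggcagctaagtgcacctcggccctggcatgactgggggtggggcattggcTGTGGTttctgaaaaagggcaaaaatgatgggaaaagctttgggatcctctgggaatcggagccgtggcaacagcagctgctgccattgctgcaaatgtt
Trpm8, chr1:88306485-88306784, plus strand: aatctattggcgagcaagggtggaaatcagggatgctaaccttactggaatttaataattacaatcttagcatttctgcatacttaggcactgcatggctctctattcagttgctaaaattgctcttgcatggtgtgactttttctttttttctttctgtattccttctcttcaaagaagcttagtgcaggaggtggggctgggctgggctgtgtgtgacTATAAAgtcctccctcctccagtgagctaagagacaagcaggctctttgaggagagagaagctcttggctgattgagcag
Trpm3, chr19:22138796-22139095, plus strand: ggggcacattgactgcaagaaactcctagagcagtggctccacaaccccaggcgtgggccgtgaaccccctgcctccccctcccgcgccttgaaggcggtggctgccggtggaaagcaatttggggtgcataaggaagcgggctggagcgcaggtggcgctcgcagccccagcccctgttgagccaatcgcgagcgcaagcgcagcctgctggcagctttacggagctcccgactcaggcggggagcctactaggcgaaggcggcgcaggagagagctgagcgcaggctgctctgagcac
Trpm7, chr2:126876212-126876511, minus strand: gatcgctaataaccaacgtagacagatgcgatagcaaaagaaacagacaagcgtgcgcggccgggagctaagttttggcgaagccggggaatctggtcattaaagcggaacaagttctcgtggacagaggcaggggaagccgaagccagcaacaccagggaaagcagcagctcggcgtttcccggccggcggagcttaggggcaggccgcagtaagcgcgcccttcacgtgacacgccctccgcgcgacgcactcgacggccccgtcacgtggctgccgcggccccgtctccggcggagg
The Trpm8 promoter held a TATAAA and 1 CpG, and the Trpv1 promoter held a TGTGGT and 4 CpG. The Trpm7 promoter held 35 CpG and that at the first Trpm3 start held 21, with none of the 3 motifs, while the second Trpm3 start, not shown, held 10 CpG and a TGTGGT on the other strand, against a median of 7 CpG over 32851 promoters of the same length. TGTGGT was present in 16.8%, TGCGGT in 6.45% and TATAAA in 13.6% of all promoters, so single matches are common. They were not confined to the genes shown. Starts 1 and 2 of Trpv2, whose transcript was lower, held a TGTGGT. Its start 2 also held a TATAAA, in the bases after the start, and the Trpm2 promoter held one on the other strand. Trpv2 start 3 and the Trpc1 promoter held none of the motifs.

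Total gene counts were 17209294 to 20545722 per library. WT replicate 2 stood apart: its log2 CPM, CPM being TMM-scaled (trimmed mean of M-values) counts relative to library size, had correlations across genes of 0.846 to 0.877 with the other libraries. The other 5 reached at least 0.981 among themselves, and genes are no independent replicates here. In WT replicate 2 marker genes of skeletal muscle, by median, were 3.01 higher on the log2 scale than in WT replicates 1 and 3. Those of erythrocytes were 2.53, of mast cells 1.48, of neutrophils 1.34 and of macrophages 0.76 higher. Not every member rose: Alas2 of the erythrocyte list was at 0.03, and Ngp and Ltf of the neutrophil list were at -0.39 and 0.03. The medians of central nervous system tissue (-0.88), fibroblasts (-0.41), satellite glia (-0.32) and endothelium (-0.20) were lower there, and that of Schwann cells was 0.06. The mast cell and neutrophil medians also differed between WT replicates 1 and 3. Muscle markers had few reads: 2 of the 7 passed the count filter, and Atp2a1 had 0 reads in WT replicate 2. Markers of sensory neurons were present in every library, with summed levels of 11400 to 12070 CPM in 5 libraries and 25240 CPM in WT replicate 2, and by median they were 0.29 lower there. Most of that higher sum was Uchl1, at 14230 CPM against 2258 to 2850 CPM elsewhere. Across genes, the log2 difference of WT replicate 2 from WT replicates 1 and 3 had a Spearman rho of -0.38 with gene length. Trends fitted to GC share and gene length gave a difference from -0.85 for Trpm7 to 0.18 for Trpv1 among the channel genes. The parts of cell content and of gene length in the difference of this library were not tested. Ash1l itself was at 60.9, 30.9 and 54.4 CPM in WT replicates 1, 2 and 3 and at 66.5, 66.5 and 68.9 CPM in the libraries labelled Ash1l+/-, so the transcript was not lower in those libraries and every direction below rests on the labels alone. Fold changes are given with all 6 libraries and without WT replicate 2.

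With all 6 libraries, edgeR's quasi-likelihood test called none of the 9 channel genes at a Benjamini-Hochberg adjusted p of 0.05, and 0 of the 16032 genes tested (0%). At an unadjusted p of 0.05 edgeR still gave 0 of the 9, against 10.6% of all genes, and DESeq2 and limma-voom called 0 of the 9 at an adjusted p of 0.05. Over all genes DESeq2 called 0.0686% higher and 0.15% lower. With library quality weights, limma-voom called 5 of the 9, Trpa1, Trpm8, Trpm3 and Trpm7 higher and Trpm4 lower, against 26.1% of all genes, 12.3% higher and 13.8% lower. By value, 6 genes had higher and 3 had lower fitted levels in the libraries labelled Ash1l+/-, with a median log2 fold change of 0.45 over the 9 and of -0.00 over all genes. In 6 of the 9 the groups did not overlap, 4 higher and 2 lower, and over all tested genes the groups did not overlap in 38.5%, 19.3% higher and 19.2% lower. The same 6 did not overlap when WT replicate 2 was left out, where the share over all genes was 49.2%, 23.9% higher and 25.3% lower. A two-sided exact permutation test of 3 against 3 libraries cannot go below p = 0.1, and it gave p = 0.1 for each of those 6.

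On the 5 libraries left without WT replicate 2, edgeR called 3 of the 9, Trpm8, Trpm3 and Trpm7, all higher, against 19.8% of all genes, 9.39% higher and 10.4% lower. The median log2 fold change over the 9 was 0.16, against 0.00 over all 16395 genes tested. Across genes, the fold changes from these 5 libraries had a Spearman rho of -0.55 with the GC share of the transcript and of 0.28 with gene length, so a further analysis removed both trends from each library. It called Trpm8, Trpm3 and Trpv1, all higher, against 7.17% of all genes, 3.07% higher and 4.1% lower. Trpm8 and Trpm3 were called in both of these analyses, but not with limma on log2(FPKM + 1) of the same 5 libraries, where their adjusted p was 0.0519 and 0.0512.

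**Figure D1:**
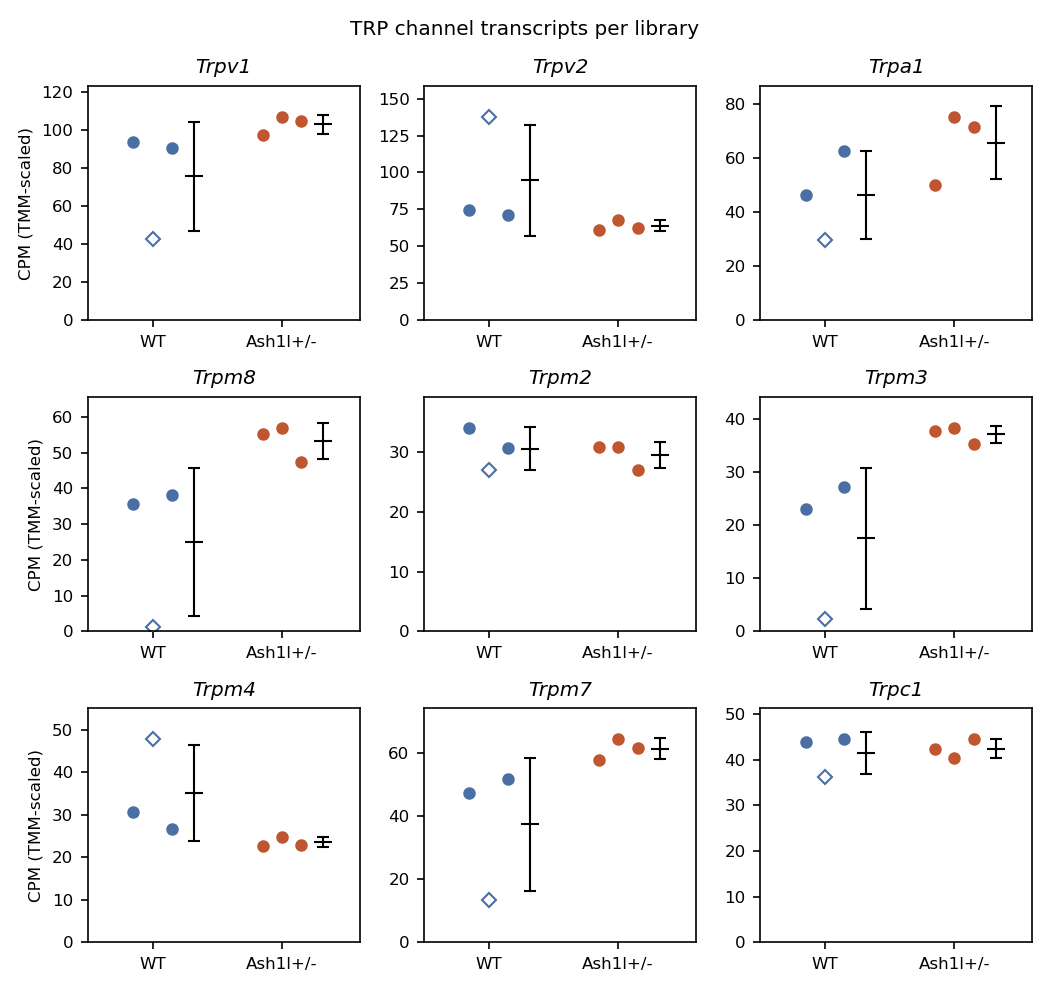
TMM-scaled CPM (y axis, from 0) of each of the 9 genes in WT and Ash1l+/- libraries (x axis). Each point is a library, the open diamond is WT replicate 2, and the bar beside each group is the mean with the SD of its 3 libraries; for Trpm8 and Trpm3 the open diamond lies at 1.12 and 2.32 CPM, far below all other libraries.

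Trpm8, the cold and menthol receptor (ENSMUSG00000036251, chromosome 1, 88277661 to 88389293, plus strand of GRCm38), was at 35.7, 1.12 and 38.3 CPM in WT replicates 1, 2 and 3. It was at 55.4, 57.0 and 47.5 CPM in replicates 1, 2 and 3 labelled Ash1l+/-. The groups did not overlap, and the WT spread came almost wholly from WT replicate 2, which had 15 reads where the other libraries had 722 to 1209. The 95% exact Poisson interval of those 15 reads was 0.627 to 1.85 CPM, which covers counting error only. The level in WT replicate 2 was 33.0 times below the mean of WT replicates 1 and 3, and 0.674% of tested genes were further below. The antisense gene 4930453O03Rik shares 388 exon bases with Trpm8 and had 0 reads. The log2 fold change with all 6 libraries came to 1.09 (SE 0.99, adjusted p = 0.531 in edgeR). From 5 libraries, WT replicate 2 left out, it was 0.53, or 1.45-fold (SE 0.10, adjusted p = 0.00107), and with trends removed it was 0.55 (SE 0.09, adjusted p = 0.00107). Leaving out a further library gave 0.48 to 0.61, with adjusted p from 0.000479 to 0.029.

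Of the markers of cold-sensing neurons other than Trpm8, Gpr26 alone was called without WT replicate 2. Gpr26, an orphan receptor gene, was at 16.8, 5.83 and 16.4 CPM in WT replicates 1, 2 and 3 and at 26.2, 26.7 and 28.2 CPM in the libraries labelled Ash1l+/-. It rose without WT replicate 2 by 0.70 on the log2 scale (SE 0.11, adjusted p = 0.000304 in edgeR), and its log2 fold change with all 6 libraries was 1.051 (adjusted p = 0.386). Cdh8, a cadherin gene, was low in WT replicate 2, at 4.18 CPM, and at 17.4 to 19.7 CPM in the other 5 libraries, with a log2 fold change of -0.03 without WT replicate 2 (adjusted p = 0.898) and of 0.40 with all 6 (adjusted p = 0.655). Foxp2, a transcription factor gene, was highest in WT replicate 2, at 5.60 CPM, against 2.75 to 3.84 CPM elsewhere. Its log2 fold change was 0.38 without WT replicate 2 (adjusted p = 0.268 in edgeR) and -0.04 with all 6 libraries (adjusted p = 0.944). Rxfp1, the fourth marker, had 2 to 15 reads and was not tested. In bulk RNA, fewer cells of a type and less RNA per cell cannot be told apart. The summed level of the 4 markers was 38.7, 15.8 and 38.4 CPM in WT and 47.7 to 51.0 CPM in the libraries labelled Ash1l+/-. The sum was higher there than in WT replicates 1 and 3 mostly through Gpr26. None of the 4 was at 0, and 1 of the 3 tested was called higher without WT replicate 2, where 9.39% of all genes were. The part of these markers in the Trpm8 result was not tested.

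Trpm3, a heat-activated and steroid-activated channel (ENSMUSG00000052387, chromosome 19, 22139119 to 22989884, plus strand), was at 23.1, 2.32 and 27.1 CPM in WT replicates 1, 2 and 3. It was at 37.7, 38.4 and 35.3 CPM in the libraries labelled Ash1l+/-. The 3 libraries labelled Ash1l+/- lay close together, above all WT libraries, and WT replicate 2 had 31 reads against 468 to 824 elsewhere (95% exact Poisson interval 1.57 to 3.29 CPM). The log2 fold change was 1.08 with all 6 libraries (SE 0.76, adjusted p = 0.443 in edgeR). With WT replicate 2 left out it was 0.57, or 1.48-fold (SE 0.10, adjusted p = 0.00106). With trends removed it was 0.41 (SE 0.09, adjusted p = 0.00981). Trpm3 hosts the microRNA gene Mir204 on its own strand, with no shared exon bases and 0 reads in the table, and an antisense transcript, Gm27151, shares 277 exon bases and had 11 to 34 reads. The kit does not record strand, and reads from the shared stretch could belong to either gene.

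Trpm7, a channel joined to a protein kinase that carries magnesium and is made in nearly all cells (ENSMUSG00000027365, chromosome 2, 126791565 to 126876230, minus strand), was at 47.1, 13.3 and 51.8 CPM in WT replicates 1, 2 and 3. It was at 57.8, 64.4 and 61.5 CPM in the libraries labelled Ash1l+/-, with no overlap. Its log2 fold change was 0.71 with all 6 libraries (SE 0.48, adjusted p = 0.43 in edgeR) and 0.31 without WT replicate 2 (SE 0.09, adjusted p = 0.0154). Its longest transcript had a GC share of 40.1%, with only 6.97% of tested genes lower, and its gene length of 11315 bases exceeded that of 93.9% of genes. The trends fitted to the libraries differed between the groups by 0.32 on the log2 scale at this GC share and length. Once trends were removed, the fold change of Trpm7 was -0.01 on the log2 scale (SE 0.07, adjusted p = 0.977). The call was also lost without WT replicate 1 (0.24, adjusted p = 0.235) and without Ash1l+/- replicate 2 (0.27, adjusted p = 0.0801).

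Trpv1, the capsaicin and heat receptor (ENSMUSG00000005952, chromosome 11, 73234292 to 73261242, plus strand), was at 93.5, 42.4 and 90.7 CPM in WT replicates 1, 2 and 3. It was at 97.2, 106.9 and 104.5 CPM in the libraries labelled Ash1l+/-. The groups did not overlap, and the lowest library labelled Ash1l+/- lay close above WT replicate 1. The log2 fold change was 0.45 with all 6 libraries (SE 0.31, adjusted p = 0.441 in edgeR) and 0.16, or 1.12-fold, without WT replicate 2 (SE 0.08, adjusted p = 0.145). With trends removed it was 0.27 (SE 0.07, adjusted p = 0.0199), the analysis in which this gene passed.

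Trpa1, the receptor for irritants (ENSMUSG00000032769, chromosome 1, 14872648 to 14918862, minus strand), was at 46.4, 29.8 and 62.6 CPM in WT replicates 1, 2 and 3. It was at 50.2, 75.3 and 71.6 CPM in the libraries labelled Ash1l+/-. The groups overlapped, since Ash1l+/- replicate 1 lay below WT replicate 3, and the libraries of each group differed more among themselves than for the other channels once WT replicate 2 was set aside. The log2 fold change was 0.50 with all 6 libraries (SE 0.31, adjusted p = 0.408 in edgeR), 0.27 without WT replicate 2 (SE 0.13, adjusted p = 0.171) and 0.13 with trends removed (SE 0.12, adjusted p = 0.566). Single libraries decided whether it passed among the 5: the log2 fold change was 0.49 without WT replicate 3 (adjusted p = 0.0258) and 0.43 without Ash1l+/- replicate 1 (adjusted p = 0.00346), and these 2 analyses called it. Its GC share of 42.7% was also low, with 15.6% of tested genes lower.

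Trpv2, a channel opened by strong heat and by stretch that larger neurons and immune cells also carry (ENSMUSG00000018507, chromosome 11, 62574486 to 62600515, plus strand), was at 74.8, 138 and 71.3 CPM in WT replicates 1, 2 and 3. It was at 61.3, 68.1 and 62.2 CPM in the libraries labelled Ash1l+/-, below all WT libraries. The log2 fold change was -0.57 with all 6 libraries (SE 0.28, adjusted p = 0.386 in edgeR), -0.19 without WT replicate 2 (SE 0.08, adjusted p = 0.0964) and -0.05 with trends removed (SE 0.07, adjusted p = 0.725). Trpm4 (ENSMUSG00000038260, chromosome 7, 45302632 to 45333780, minus strand) encodes a cation channel opened by calcium inside the cell. The gene was at 30.7, 47.9 and 26.7 CPM in WT replicates 1, 2 and 3. It was at 22.8, 24.8 and 23.0 CPM in the libraries labelled Ash1l+/-, again below all WT libraries. Its log2 fold change was -0.58 with all 6 libraries (SE 0.25, adjusted p = 0.386 in edgeR), -0.29 without WT replicate 2 (SE 0.11, adjusted p = 0.0629) and -0.18 with trends removed (SE 0.10, adjusted p = 0.289). The pseudogene Rpl14-ps1 lies within Trpm4 on the other strand, with 741 to 1072 reads and no shared exon bases.

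Trpm2, a channel opened by oxidative stress and warmth that macrophages also carry (ENSMUSG00000009292, chromosome 10, 77907722 to 77970563, minus strand), was at 34.1, 27.0 and 30.7 CPM in WT replicates 1, 2 and 3. It was at 30.9, 30.8 and 27.0 CPM in the libraries labelled Ash1l+/-, and the groups overlapped. Trpc1, a channel subunit tied to calcium entry and touch (ENSMUSG00000032839, chromosome 9, 95705082 to 95750375, minus strand), was at 43.8, 36.2 and 44.4 CPM in WT replicates 1, 2 and 3 and at 42.2, 40.4 and 44.6 CPM in the libraries labelled Ash1l+/-. Neither gene passed in any analysis run. Small nucleolar RNA genes Gm22394 and Gm22871 share 44 and 47 exon bases with Trpm2 and had 0 reads. Without WT replicate 2 the log2 fold change in edgeR was -0.13 for Trpm2 (SE 0.10, adjusted p = 0.40) and -0.06 for Trpc1 (SE 0.09, adjusted p = 0.707). With all 6 libraries it was -0.05 for Trpm2 (SE 0.16, adjusted p = 0.847) and 0.03 for Trpc1 (SE 0.15, adjusted p = 0.90). With trends removed from the 5 libraries it was -0.14 for Trpm2 (SE 0.09, adjusted p = 0.363) and -0.22 for Trpc1 (SE 0.08, adjusted p = 0.0943). These 2 genes were also the least changed in WT replicate 2, by -0.26 and -0.29 on the log2 scale.

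Markers of macrophages, which carry Trpm2 and Trpv2 as well, summed to 45.7, 128 and 46.8 CPM in WT replicates 1, 2 and 3 and to 36.6 to 42.4 CPM in the libraries labelled Ash1l+/-. None of the 8 markers was at 0 or was called in either analysis. The largest part of the sum in WT replicate 2 was the complement gene C1qa, at 63.7 CPM, with C1qb at 22.6 and C1qc at 18.8 CPM. Aif1 was 1.94 higher there on the log2 scale than in WT replicates 1 and 3. Csf1r, Adgre1 and Cx3cr1 were 0.14 to 0.23 higher, and Cd68 was at -2.29. Their highest sum was in WT replicate 2, the library in which Trpv2 was also highest and Trpm2 was lowest of the WT. Of 7 markers of large myelinated neurons, 4 rose and none fell without WT replicate 2, against 9.39% of all genes higher and 10.4% lower, and with trends removed 1 of the 7 rose, against 3.07% of all genes. The part of these cells in the Trpv2 and Trpm2 results was not tested.

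**Figure D2:**
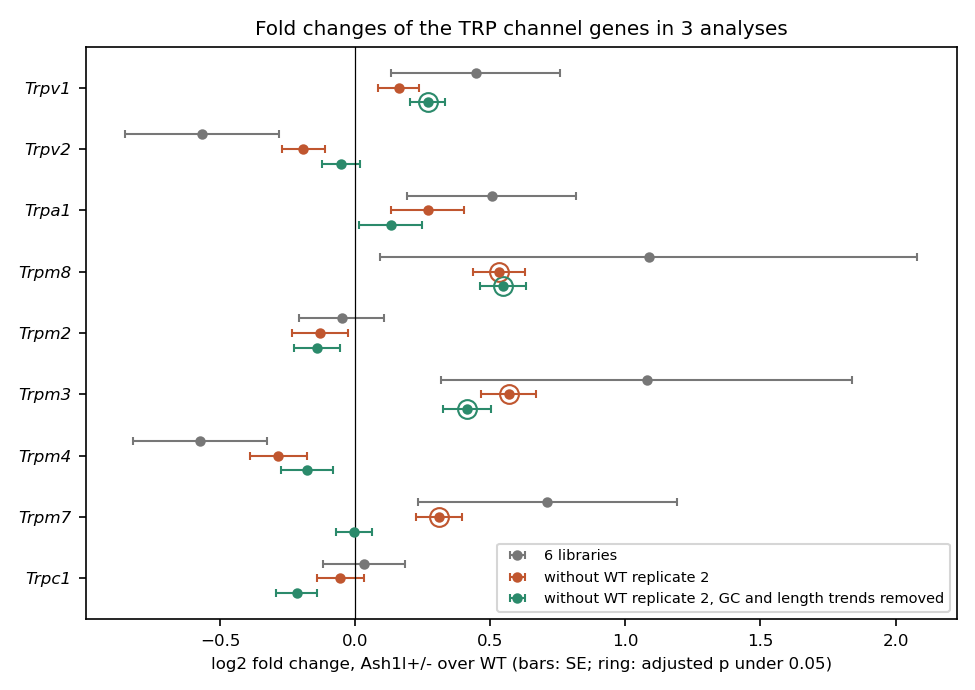
Log2 fold change of Ash1l+/- over WT (x axis) for each gene (y axis), with bars for the SE, from all 6 libraries, from 5 libraries without WT replicate 2, and from those 5 with GC and length trends removed. Rings mark an adjusted p under 0.05 in edgeR; Trpm8 and Trpm3 carry rings in both analyses of 5 libraries, Trpm7 and Trpv1 in 1 each.

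Levels of different genes were compared per length, as TMM-scaled CPM per kilobase of the deposited gene length. That length was 10826 bases for Trpm4 and 12459 for Trpm2, whose longest GENCODE M21 transcripts have 4315 and 7274 bases. For Trpm3 it was 8061 bases, against 12305 in the longest transcript. The order and shares below depend on this length, and no other length was tried. Over the 5 libraries without WT replicate 2, Trpv1 was highest, at 26.8 ± 1.89 (SD, n = 5), above every other channel in every one of these libraries. Trpv2 followed at 15.1 ± 1.30 and Trpa1 at 14.4 ± 2.98, whose ranges overlapped, with Trpv2 above Trpa1 in 3 of the 5. Trpm8 was at 9.88 ± 2.05, below Trpa1 in every one of the 5 although their ranges over libraries overlapped. Trpc1 at 5.36 ± 0.22, Trpm7 at 4.99 ± 0.63 and Trpm3 at 4.01 ± 0.85 formed a lower group with overlapping neighbours. Trpm2 at 2.46 ± 0.20 and Trpm4 at 2.36 ± 0.30 were lowest on this scale and did not differ beyond their spread.

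The order was not the same in the libraries labelled Ash1l+/- as in WT replicates 1 and 3. Per kilobase, Trpa1 stood at 15.4 ± 3.18 and Trpv2 at 14.2 ± 0.83 in the libraries labelled Ash1l+/- (SD, n = 3), against 12.8 and 16.3 in WT replicates 1 and 3, but their ranges overlapped in the former. Trpm7 at 5.41 ± 0.29 stood beside Trpc1 at 5.28 ± 0.26, while in WT replicates 1 and 3 Trpc1 was above Trpm7 in both libraries. In WT replicate 2 Trpa1 again followed Trpv1 and Trpv2, but Trpv2 led at 30.7, Trpv1 was at 11.5, and Trpm3 at 0.287 and Trpm8 at 0.237 were last.

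As a share of the summed level per kilobase of the 9 genes, Trpv1 made up 30.1 to 32.3% in each of the 5 libraries and 18.6% in WT replicate 2. The Trpm8 share was 9.59% and 9.90% in WT replicates 1 and 3 and 11.3 to 14.1% in the libraries labelled Ash1l+/-. Trpv2 made up 21.2% and 19.5% in WT replicates 1 and 3, 15.6 to 16.4% in the libraries labelled Ash1l+/-, and 49.5% in WT replicate 2. The summed level itself was 78.6 and 81.7 in WT replicates 1 and 3, 83.2 to 94.2 in the libraries labelled Ash1l+/- and 62.0 in WT replicate 2.

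**Figure D3:**
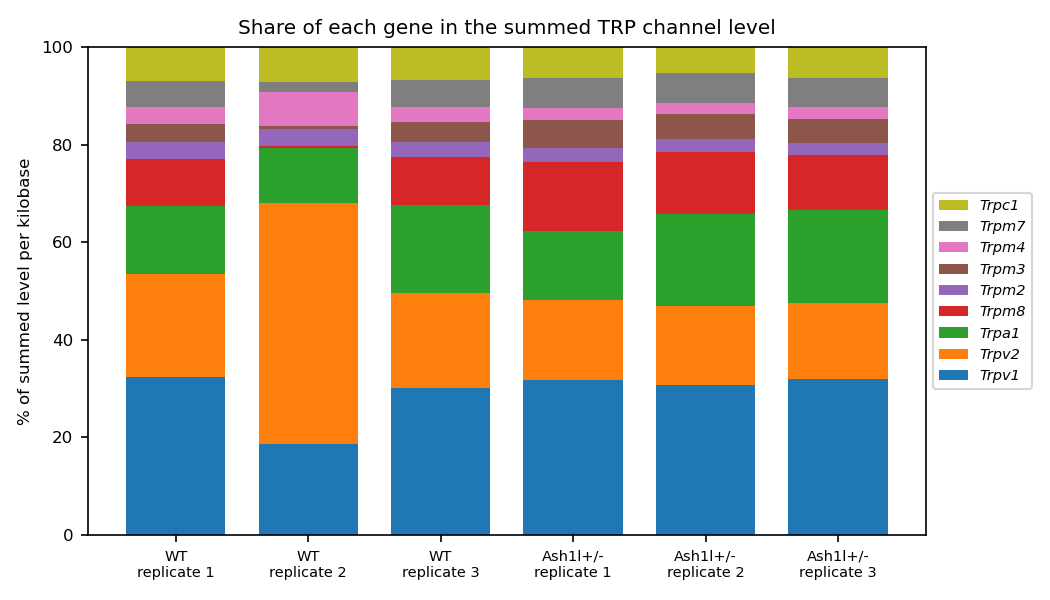
Share of each of the 9 genes (colours) in their summed TMM-scaled counts per kilobase, in percent (y axis), for each library (x axis). Trpv2 takes 49.5% of WT replicate 2 and at most 21.2% of the other libraries, while Trpm8 is nearly absent from WT replicate 2.

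Levels were also taken relative to the median of 10 sensory neuron markers in the same library. Trpm8, Trpm3, Trpm7 and Trpv1 were then higher in all 3 libraries labelled Ash1l+/- than in WT replicates 1 and 3, and Trpm4 and Trpc1 were lower. This log2 scale was set to 0 at the mean of WT replicates 1 and 3. In replicates 1, 2 and 3 labelled Ash1l+/-, Trpm8 was at 0.62, 0.69 and 0.30 and Trpm3 at 0.62, 0.68 and 0.43. Trpm7 was at 0.26, 0.44 and 0.25 and Trpv1 at 0.11, 0.28 and 0.12 in the same libraries. In WT replicate 2 the values were -4.46 for Trpm8, -2.92 for Trpm3, -1.43 for Trpm7 and -0.66 for Trpv1. Trpv2 was at 1.37 and Trpm4 at 1.20 there, so their ratio to the markers was higher than in WT replicates 1 and 3. Of the 10 markers, 1 rose and 2 fell without WT replicate 2, where 19.8% of all genes were called, and with trends removed 2 rose and 1 fell, where 7.17% were.

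Marker lists of sensory neuron classes differed in the sign of their medians in WT replicate 2, and members of each list went both ways. By median, peptidergic nociceptor markers were 0.77 higher there than in WT replicates 1 and 3. Non-peptidergic ones were 0.31 lower, itch neuron markers 0.06, large myelinated neuron markers 0.30 and cold-sensing neuron markers 1.02 lower. Peptidergic markers ran from -0.15 (Adcyap1) to 1.71 (Tac1) and non-peptidergic ones from -2.26 (P2rx3) to 0.83 (Gfra2). Itch markers ran from -2.09 (Il31ra) to 1.95 (Sst). Large myelinated ones ran from -2.03 (Ntrk3) to 3.36 (Pvalb) and cold-sensing ones from -2.15 (Cdh8) to 1.00 (Foxp2). Trpv1, most of whose cells are peptidergic, was 1.12 lower in that library on the same scale, and Trpa1 was 0.85 lower. The middle 50% of all tested genes lay between -0.84 and 0.78, with Trpa1 just below that range, Trpv1 below it, and Trpm8, at -4.91, and Trpm3, at -3.38, far below it. Of the class medians above, only that of cold-sensing neuron markers lay outside the middle 50%. Between WT replicates 1 and 3 the largest difference among the 9 was that of Trpa1, at -0.43.

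**Figure D4:**
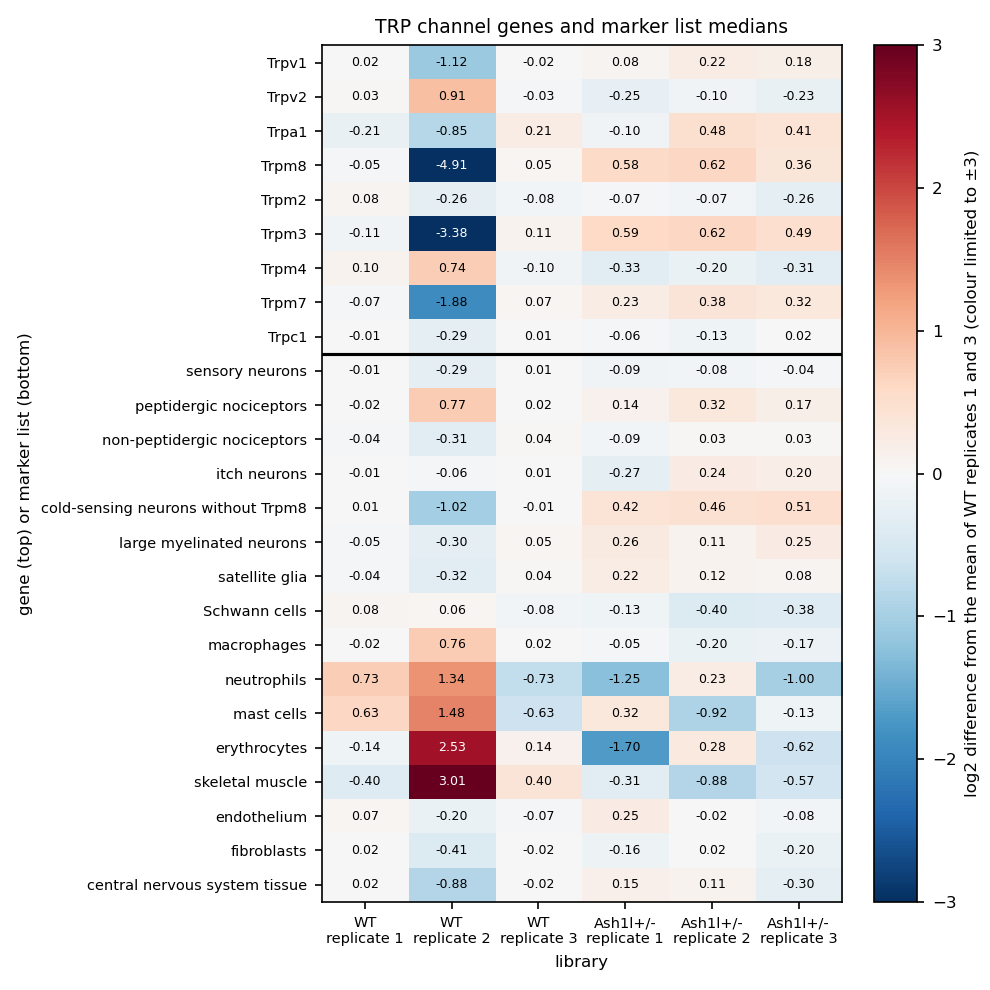
Log2 difference from the mean of WT replicates 1 and 3 (colour, limited to 3 in either direction, with the value printed) for the 9 genes and for the median of each marker list (y axis) in each library (x axis). Trpm8 at -4.91 and Trpm3 at -3.38 in WT replicate 2 are lower than the median of any marker list there.

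Genes with the most similar pattern over the 6 libraries were sought among 11226 other protein-coding genes with a mean of at least 5 CPM, by the root mean square difference of centred log2 CPM. For Trpm8 they were Lancl3, at a difference of 0.08, Kcna1, a potassium channel gene, at 0.11, and Gpam, at 0.11, where the median gene stood at 1.95. For Trpm3 they were Zfp26 at 0.07, Klhl11 at 0.08 and Dpp8 at 0.11. The root mean square of Trpm8 about its own mean was 1.96 and that of Trpm3 1.41, mainly through their low values in WT replicate 2. Likeness to these 2 genes therefore mostly means a similar drop in that library. Kcna1 was at 158, 5.90 and 161 CPM in WT replicates 1, 2 and 3 and at 211 to 236 CPM in the libraries labelled Ash1l+/-. For Trpv1 they were Qrich1, Etnk1 and Akap12, at 0.03 to 0.04, and for Trpa1 they were Phf14, Npy2r, a neuropeptide Y receptor gene, and mt-Nd5, at about 0.10 each.

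Of 19 other genes of the TRP superfamily, 12 were tested with all 6 libraries and none was called. Without WT replicate 2, 13 were tested, 1 fell and none rose, where 10.4% of all genes fell and 9.39% rose. Their median log2 fold change was 0.11. The one that fell was Mcoln1, which encodes the lysosomal channel mucolipin-1, at 68.0, 124 and 69.1 CPM in WT replicates 1, 2 and 3 and 51.3, 55.3 and 50.2 CPM in the libraries labelled Ash1l+/-. The groups did not overlap, and the log2 fold change without WT replicate 2 was -0.39 (SE 0.08, adjusted p = 0.0029 in edgeR) and with trends removed -0.42 (SE 0.07, adjusted p = 0.00145). With all 6 libraries it was -0.73 (SE 0.27, adjusted p = 0.386). Per kilobase, Pkd2l2 was at 8.71 and Mcoln1 at 7.78 over the 5 libraries, near the level of Trpm8. Pkd2l2, like Trpm8, was low in WT replicate 2, at 0.971 CPM against 20.6 to 25.97 CPM in the other libraries, with a log2 fold change of -0.12 without that library (adjusted p = 0.495) and of 0.43 with it (adjusted p = 0.78). Trpc2 and Mcoln3 had 0 reads in every library.

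Partners and regulators of the channels, 18 genes, were all tested and none was called with all 6 libraries. Without WT replicate 2, 1 rose, 2 fell and 15 did not pass, where 19.8% of all genes were called, 9.39% higher and 10.4% lower. Their median log2 fold change was 0.04. Prkca, a protein kinase C gene, rose by 0.28 (SE 0.08, adjusted p = 0.0166 in edgeR), and Pip5k1c, which makes the lipid PIP2 that keeps many TRP channels active, had a log2 fold change of -0.27 (SE 0.08, adjusted p = 0.0221). With all 6 libraries the values were 0.34 for Prkca (adjusted p = 0.386) and 0.01 for Pip5k1c (adjusted p = 0.981). With trends removed none of the 18 was called, and the values were 0.13 for Prkca and -0.00 for Pip5k1c. Pirt, a membrane protein that binds TRPV1 and TRPM8, was at 249 per kilobase over the 5 libraries, and Plcb3, a phospholipase C gene, at 121. Pirt was at 923, 578 and 1030 CPM in WT replicates 1, 2 and 3 and at 1034 to 1136 CPM in the libraries labelled Ash1l+/-, with a log2 fold change of 0.16 without WT replicate 2 (SE 0.07, adjusted p = 0.135) and of 0.37 with all 6 libraries (SE 0.24, adjusted p = 0.422).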

How the data were processed

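RNA of 6 mouse dorsal root ganglion libraries was sequenced after a NEBNext Ultra RNA kit, per the labels' protocols. The authors deposited raw read counts per gene and FPKM values; HISAT2 2.0.5 and featureCounts 1.5.0-p3 with GRCm38 (mm10) are named, per the submitters' processing notes, with no parameters stated there. The deposited FPKM equal the counts divided by gene length and by 1 library size per sample, which is 0.75 times the total count in WT replicate 2 and 1.02 to 1.04 times in the others, so they served only as an alternative scale.

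Groups were taken from the sample titles. Counts passed filterByExpr and were scaled by TMM (factor 0.7595 for WT replicate 2, 1.045 to 1.065 elsewhere). The test was edgeR's quasi-likelihood F test (edgeR 4.0.16, R 4.3.3), with Benjamini-Hochberg adjustment over all genes tested. SEs were taken as the size of the log2 fold change over the root of the F statistic. Log2 CPM used a prior count of 2. GC and length trends were removed with loess curves (span 0.3, values clipped at the 1 and 99 percentiles) fitted per library in alternation against log2 gene length and the GC share (longest GENCODE M21 transcript), and used as offsets; 99.9% of tested genes had a GC value. The test was checked on simulated counts with the same dispersion for every gene. They held no outlying library and no GC or length trend, so the check does not cover these features of the data. Alternatives were other scaling and filters, DESeq2 1.42.0, limma 3.58.1, FPKM scales, a replicate block and leaving out each library. All pairs of libraries differed by more than sampling noise (lowest chi-square per degree of freedom 3.71).

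The members, gene lists and tests were chosen with earlier results of these data known. Named genes were the 9 channels, in each of the 2 related lists those past the threshold (up to 6, by size) and the 3 highest per kilobase, and the 3 genes nearest in pattern to Trpv1, Trpa1, Trpm8 and Trpm3, with genes whose intervals overlap a channel gene. Some genes that this rule names are not reported here. Ash1l and single marker genes were named after their values were seen. Promoters and microRNA are from RefSeq (GRCm38.p6). The deposited interval of Trpm3 differs from that in GENCODE M21, and the other 8 are equal.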

Additional observations from a re-analysis of the deposited data

How the results depend on the processing

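With all 6 libraries, 0 of the 9 channel genes were called under 17 of 19 alternatives. The exceptions were limma-voom with library quality weights, in which WT replicate 2 weighed 0.0274, with calls for 5 of the 9 and 4179 genes in all, and the analysis without WT replicate 2, which called 3 of the 9. DESeq2 called 35 genes in all and no channel gene. Leaving out 1 library gave 0 to 3252 genes in all and 0 to 3 channel genes, with the highest of each reached without WT replicate 2. Small fold changes turned sign: for Trpm2, 0.072 with library totals only, 0.040 without WT replicate 1 and 0.015 without Ash1l+/- replicate 3; for Trpc1, -0.064 with quality weights, -0.33 with trends removed, -0.055 without WT replicate 2 and -0.00051 without Ash1l+/- replicate 3. Leaving out 1 library gave -0.13 to 0.040 for Trpm2 and -0.055 to 0.092 for Trpc1. The cause was not tested.

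Without WT replicate 2, removing GC and length trends gave 1175 calls in place of 3252 and turned Trpm7 to -0.0052. The log2(FPKM + 1) scale called 579 genes and 0 channel genes, with Trpm8 at an adjusted p of 0.0519 and Trpm3 at 0.0512. Leaving out a further library gave 796 to 4198 genes in all, 796 of them without WT replicate 1, 1855 without Ash1l+/- replicate 2 and 2120 without Ash1l+/- replicate 3, and 2 to 4 channel genes; where 1 wild type was left, its spread was taken from the other group. Trpm8 and Trpm3 were called in all of these but the FPKM scale.

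The labels state no link between same-numbered libraries beyond the number. Their deviations from the group means correlated at 0.00052, -0.03 and 0.04 across genes. WT replicate 2 enters the WT mean and dominates the WT deviations, so these values cannot show whether libraries were paired. The replicate block called 0 genes in all and 0 channel genes, as did the main analysis of all 6 libraries.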

Other observations

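Trpm5, the taste and chemosensory cell channel gene, was too low to be tested and was singled out after its values were seen. It had 5, 6 and 4 reads in WT replicates 1, 2 and 3 and 0 reads in each of the 3 libraries labelled Ash1l+/-, a sum of 15 against 0. Without a count filter its unadjusted p was 0.0077 in edgeR, and its adjusted p of 0.568 missed the threshold.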
